A study of Mus musculus with 7 samples.

Results

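The genes described here code for the extracellular matrix and the basement membrane: collagens, laminin chains, the proteins that link them, brain proteoglycans, matrix receptors, and the enzymes that cut matrix or block such cutting. They form a list of 42 named genes out of 55335 genes in the counts, each matched by its identifier to a symbol in the mouse Gencode annotation. The list was drawn up around Col18a1, whose higher level in cells without Smchd1 was already known from these data, to see whether its partners in the matrix moved with it. All 42 genes were found, and 36 had enough counts to be tested. The other 6 (Col2a1, Lama2, Nid1, Nid2, Acan and Hapln1) were too low.

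The cells were mouse neural stem cells (NSCs) of strain FVB/N, dividing precursors of neurons and glia. The 4 wild-type (WT) samples carried intact Smchd1, a gene whose product keeps chosen regions of chromatin silent, and the 3 *Smchd1*-null samples carried the MommeD1 mutation of it. All 7 were grown without treatment in NeuroCult stem cell medium with EGF and bFGF, and their age and sex are not given in the labels. Since the cells are a culture, they lack the blood vessels and meninges that lay down much of the basement membrane of a living brain. Polyadenylated RNA was copied directly to cDNA and read as nanopore long reads in 2 batches that used different versions of the library kit. Batch 1 held WT replicate 2 and *Smchd1*-null replicates 1 and 2, batch 2 held WT replicates 3 and 4 and *Smchd1*-null replicate 3, and WT replicate 1 was read in both and summed by the authors. The labels do not say whether samples of a genotype came from different animals, so every p-value measures only the spread between these samples.

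A basement membrane is a thin sheet of matrix under epithelia and around vessels, and in the brain it also lies beneath the pia. Laminin trimers and a collagen IV network form its layers, nidogens and the heparan sulfate proteoglycans perlecan and agrin tie them together, and integrins and dystroglycan anchor cells to it. Collagen XVIII, the product of Col18a1, is a heparan sulfate proteoglycan of most basement membranes, and its C-terminal fragment is endostatin. Between brain cells the matrix is of another kind, made of chondroitin sulfate proteoglycans and tenascins, which neural stem cells and glia secrete.

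Col18a1 lies at chr10:77052178-77166548 on the minus strand of GRCm38, with 44 exon blocks and 5 annotated transcripts, and no other annotated gene shares its exons. RefSeq gives it 2 starts. The 250 bases before the outer start, chr10:77166531-77166780, are printed because this is the start of the only gene of the list that passed the test. They are given 5′ to 3′ on the minus strand, with GGGCGG, the core of the GC box, and its reverse complement CCGCCC in capitals.

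Col18a1: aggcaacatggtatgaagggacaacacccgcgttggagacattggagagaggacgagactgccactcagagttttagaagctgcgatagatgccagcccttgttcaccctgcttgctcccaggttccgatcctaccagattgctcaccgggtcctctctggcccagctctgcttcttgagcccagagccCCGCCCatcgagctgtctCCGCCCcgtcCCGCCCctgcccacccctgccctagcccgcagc

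All 3 matches are on the opposite strand and crowd towards the start, in a stretch with 12 CG dinucleotides and a GC content of 62.0%. The 250 bases before the inner start hold 0 matches, 3 CG dinucleotides and 57.6% GC, and most of them belong to an exon of another Col18a1 transcript. Counts per gene cannot tell which start the RNA came from. RefSeq promoter windows of 300 bases (GRCm38.p6, 250 before and 50 after a start) were found for 31 of the 42 genes, as 35 windows. GGGCGG on either strand occurred in 29 of those 35 windows (82.9%), against 35.7% of all 32851 windows. The windows of the matrix genes were also richer in CG, with a median of 18 CG dinucleotides against 7 and a median GC content of 64.0% against 52.7%. A TATA box core, TATAAA on either strand, was in 4 of the 35 (11.4%) against 13.6% of all windows, and CACGTG, the E-box of MYC and clock factors, was in 0 against 7.15%. All windows include those of genes with too few counts for the test, and the windows of tested genes alone were not compared. These matches are a description of letters, and the GGGCGG of Col18a1 is shared with most windows of genes that did not pass the test.

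Total counts were between 2.74 and 7.74 M per sample, and the 42 genes took 0.439% to 0.683% of them. Levels are given as CPM, counts per M counts of a library size scaled by TMM, and 3 counts, taken as the limit of detection, are 0.399 to 1.13 CPM depending on the sample. Smchd1 itself was at 66.9, 56.4, 74.7 and 55.7 CPM in WT and at 17.3, 12.8 and 18.4 CPM in *Smchd1*-null samples, as the labels have it. Markers of neural stem cells summed to 8630 to 13500 CPM in WT and 8300 to 9830 CPM in *Smchd1*-null samples. Markers of cells that deposit basement membrane were scarce: 7 endothelial markers summed to 2.67 to 7.03 CPM in WT and 1.5 to 5.06 CPM in *Smchd1*-null, and 7 pericyte and smooth muscle markers to 8.88 to 19.5 and 4.13 to 13.0 CPM, with Anpep at 0 throughout. Fibroblast and meningeal markers (8 genes) summed to 14.4 to 77.5 and 15.8 to 33.3 CPM with Lum at 0, but most of this was Pdgfra, which also marks oligodendrocyte precursors and is counted in that list too, and the other 7 summed to 6 to 8.57 and 3.01 to 6.70 CPM. The microglial markers (6 genes) summed to at most 1.11 CPM with C1qa and Tyrobp at 0. Choroid plexus markers (5 genes) summed to at most 1.54 CPM, and neuronal markers (6 genes) to 370 to 412 and 358 to 378 CPM. Most of the neuronal sum was Map2 (340 to 362 and 327 to 354 CPM). Among the others, Dcx was at 3.15 to 36.2 and 3.00 to 4.55 CPM, and Tubb3 at 7.87 to 15.1 and 10.4 to 13.3 CPM. WT replicate 4 stood apart from the other samples in some glial genes, with Mbp at 96.2 CPM and S100b at 65.0 CPM, against at most 4.44 and 11.5 CPM in any other sample. This did not hold for all glial genes: Olig1 was at 92.1 CPM there (85.3 to 102 CPM elsewhere), and Olig2, at 654 CPM, was lowest there. Nor was it limited to them, since the neuronal marker Dcx was at 36.2 CPM there against at most 12.0 CPM. Results that rest on WT replicate 4 are therefore also given without it. In such bulk samples, fewer cells of a type and less RNA per cell cannot be told apart.

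Col18a1 rose in *Smchd1*-null NSCs, and it was the only one of the 36 tested genes that passed an adjusted p of 0.05 or 0.25 in the weighted fit. Its level was 11.5, 22.2, 20.2 and 15.3 CPM in WT replicates 1 to 4 and 51.8, 47.8 and 39.0 CPM in *Smchd1*-null replicates 1 to 3, from 47 to 100 counts and from 138 to 359 counts. The genotypes did not overlap, and the lowest *Smchd1*-null sample was well above the highest WT sample. WT samples averaged 17.3 ± 4.85 CPM (SD, n = 4), and *Smchd1*-null samples averaged 46.2 ± 6.57 CPM (SD, n = 3). In limma's weighted fit across all 13305 tested genes the log2 fold change was 1.51 (SE 0.21, 95% interval 1.07 to 1.95), a 2.85-fold higher level, with an adjusted p of 0.0199. Since Col18a1 was on the list for this difference, its own p adds no independent evidence. Within batch 1 the *Smchd1*-null mean was higher by 1.15 on the log2 scale, and within batch 2 by 1.13, with 1 WT sample against 2 and 2 against 1. The call at 0.05 was lost in edgeR's quasi-likelihood test (adjusted p = 0.115), in voom without sample weights (adjusted p = 0.107), with all 36857 genes kept (adjusted p = 0.0552) and without WT replicate 1 (adjusted p = 0.0993) or *Smchd1*-null replicate 1 (adjusted p = 0.233) or 2 (adjusted p = 0.308), in limma where no other tool is named. The fold change was between 1.13 and 1.64 on the log2 scale in all 19 alternatives. Fits with batch or a replicate block were at the low end: 1.26 with batch, 1.13 with batch and no WT replicate 1, and 1.23 with the block. With length removal added, batch gave 1.30 and the block 1.31.

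**Figure D1:**
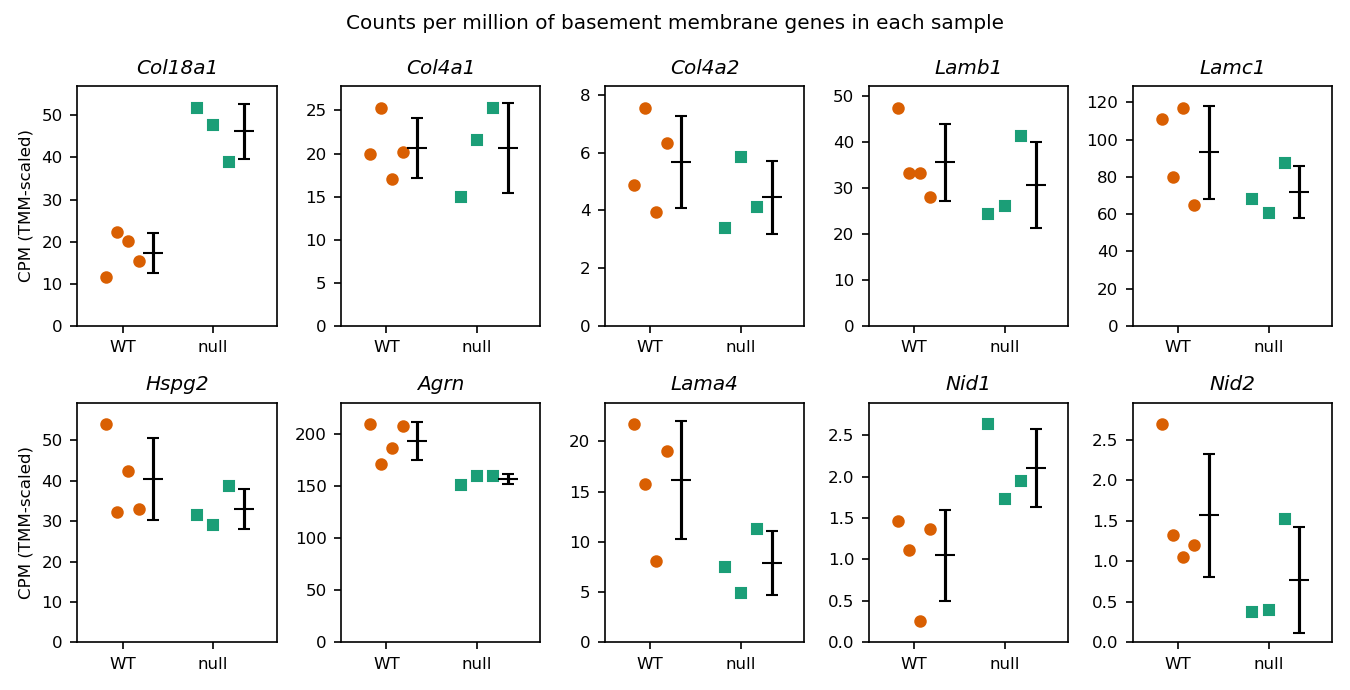
Level of Col18a1 and 9 other basement membrane genes in each sample, in TMM-scaled CPM on axes that start at 0. Circles are the 4 WT samples, squares the 3 *Smchd1*-null samples, and the black marks show the mean and SD of each genotype. Col18a1 separated the genotypes upwards, from 11.5 to 22.2 CPM in WT to 39.0 to 51.8 CPM, while the 2 collagen IV genes lay in the same range in both.

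Of the 36 tested genes, 1 passed an adjusted p of 0.05 and the same 1 passed 0.25, against 0.0902% and 1.08% of all tested genes. The other 35 gave a smallest adjusted p of 0.275. No gene but Col18a1 was higher at an unadjusted p under 0.05, where 7.11% of all genes were. Lower at an unadjusted p under 0.05 were 10 of the 36, against 6.74% of all genes, and none of these 10 passed the adjustment. The fit weighted *Smchd1*-null replicates 1 to 3 at 2.03, 1.83 and 0.67, and WT replicates 1 to 4 at 1.06, 0.65, 1.29 and 0.45. In voom without these weights, 5 of the 36 were lower, against 2.64% of all genes. In the weighted fit, the log2 fold change was below 0 for 28 of the 36, with a median of -0.20, or -0.23 without Col18a1, against 0.00 over all tested genes. In CPM, 1 tested gene (Col18a1) was higher without overlap, where 2.52% of all genes were, and 3 (Agrn, Ncan and Itga6) were lower without overlap, where 3.01% were.

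**Figure D2:**
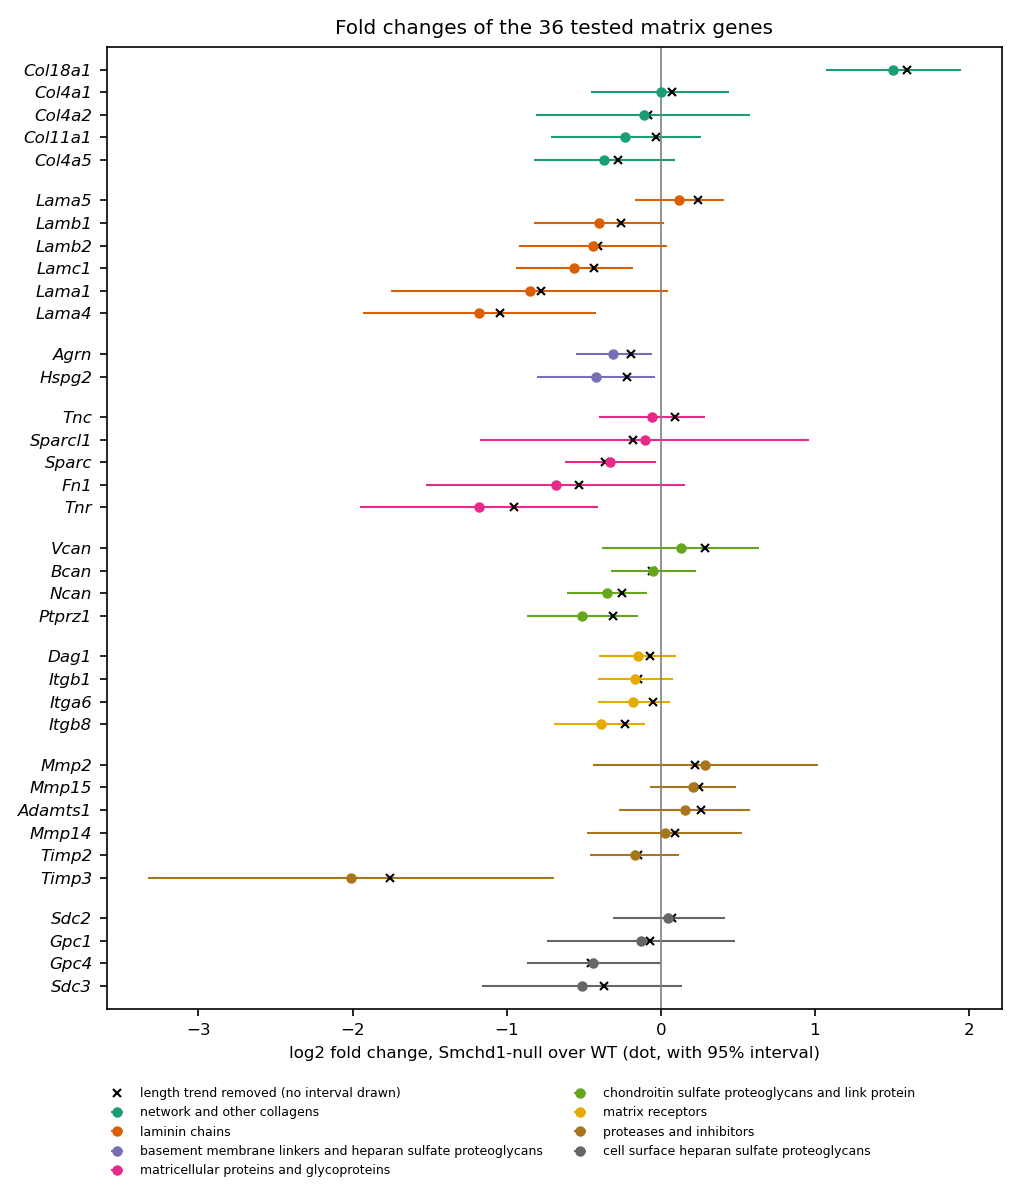
Log2 fold change of the 36 tested genes, *Smchd1*-null over WT, grouped by role. Dots and bars are limma's estimate with its 95% interval, and crosses are the estimate after the trend with gene length was removed. Col18a1 is at 1.51, and the other estimates run from -2.01 (Timp3) to 0.29 (Mmp2).

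Among the collagens, Col4a1 and Col4a2 code for the 2 chains of the collagen IV trimer found in nearly every basement membrane. Col4a1 (chr8:11198423-11312826, minus strand) was at 20, 25.3, 17.0 and 20.2 CPM in WT and at 15.0, 21.6 and 25.3 CPM in *Smchd1*-null samples. The genotypes overlapped throughout, and the log2 fold change was 0.00 (95% interval -0.45 to 0.44, adjusted p = 0.996), with -0.47 in batch 1 and 0.44 in batch 2. Col4a2 (chr8:11312805-11449287, plus strand), its head-to-head neighbour, was at 4.88, 7.55, 3.93 and 6.34 CPM in WT and 3.38, 5.86 and 4.11 CPM in *Smchd1*-null samples, with a log2 fold change of -0.11 (95% interval -0.81 to 0.58). Both genes share 22 exon bases on opposite strands, and nothing says that reads were counted by strand. The ratio of their counts, Col4a1 over Col4a2, was 3.19 to 4.33 in WT and 3.68 to 6.16 in *Smchd1*-null samples, so a surplus of Col4a1 reads was present in every library. Col4a5, a collagen IV chain coded on the X chromosome, gave -0.37 (SE 0.21), and Col11a1, a fibrillar collagen chain, -0.23 (SE 0.23). Col2a1, the main collagen of cartilage, had 1 to 25 counts in WT samples, the most in WT replicate 4, and 0 to 2 in *Smchd1*-null samples. Per kb of gene length, Col18a1 was at 2.46 CPM in WT, near Col4a1 at 2.77 CPM, and at 6.58 CPM in *Smchd1*-null samples, where Col4a1 was at 2.76 CPM.

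Laminins are trimers of an alpha, a beta and a gamma chain, and 5 of the 6 tested chains had a log2 fold change below 0. Lamc1, the gamma chain shared by most laminins, was at 111, 79.7, 117 and 64.8 CPM in WT and 67.9, 60.4 and 87.5 CPM in *Smchd1*-null samples. These ranges overlapped, since WT replicates 2 and 4 were below *Smchd1*-null replicate 3. Its log2 fold change was -0.56 (SE 0.18, unadjusted p = 0.00659, adjusted p = 0.285), with -0.31 within batch 1 and 0.00 within batch 2. Lamb1, the beta chain that pairs with it in many trimers, was at 47.4, 33.3, 33.3 and 28.1 CPM in WT and 24.4, 26.1 and 41.3 CPM in *Smchd1*-null samples. Its log2 fold change was -0.40 (95% interval -0.82 to 0.02), and the batches went opposite ways (-0.39 and 0.43). The ratio of Lamb1 to Lamc1 counts was 0.283 to 0.434 in WT and 0.359 to 0.473 in *Smchd1*-null samples.

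Lama4, an alpha chain known from the walls of blood vessels, had the smallest p of the list after Col18a1. It was at 21.7, 15.8, 8.13 and 19.0 CPM in WT and 7.51, 4.92 and 11.3 CPM in *Smchd1*-null samples. WT replicate 3 lay inside the *Smchd1*-null range and the other 3 WT samples above it. The log2 fold change was -1.18 (SE 0.35, unadjusted p = 0.00468, adjusted p = 0.275), and it was -1.31 within batch 1 but -0.15 within batch 2. Lama5, the alpha chain of many epithelial basement membranes, was the one laminin with a positive estimate, 0.12 (SE 0.13), from 62.4 to 79.3 CPM in WT and 62.8 to 80.7 CPM in *Smchd1*-null samples. Lama1, the alpha chain of early embryonic basement membranes, gave -0.85 (SE 0.42) from 9 to 37 counts per sample, and Lamb2 gave -0.44 (SE 0.22). Lama2, the alpha chain of muscle, had at most 6 counts in any sample.

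Nidogens bind laminin to collagen IV, and perlecan (Hspg2) and agrin (Agrn) are, with collagen XVIII, the heparan sulfate proteoglycans of basement membranes. Agrn was at 209, 171, 186 and 207 CPM in WT and 151, 159 and 159 CPM in *Smchd1*-null samples. Every *Smchd1*-null sample was below every WT sample. The difference was small, with a log2 fold change of -0.31 (SE 0.11, unadjusted p = 0.0168, adjusted p = 0.302) and -0.14 and -0.30 within the batches. Hspg2 was at 54.0, 32.4, 42.5 and 33.1 CPM in WT and 31.5, 29.1 and 38.7 CPM in *Smchd1*-null samples. WT replicates 2 and 4 lay within the *Smchd1*-null range, and the log2 fold change was -0.42 (SE 0.18, unadjusted p = 0.0342, adjusted p = 0.335), with -0.09 and 0.05 within the batches. So both other proteoglycans of this kind were estimated lower, the opposite direction to Col18a1.

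Nid1, which had too few counts for the test, was the only other gene of the 42 that was higher without overlap. It had 6, 5, 1 and 8 counts in WT and 7, 13 and 9 in *Smchd1*-null samples, or 1.47, 1.11, 0.262 and 1.37 CPM against 2.63, 1.73 and 1.95 CPM. All *Smchd1*-null values were above all WT values, at levels of a few reads. Its exons share 143 bases with an antisense transcript. Nid2 was at 2.69, 1.33, 1.05 and 1.20 CPM in WT and 0.375, 0.399 and 1.52 CPM in *Smchd1*-null samples, from 1 to 11 counts, with overlap, and shares 437 exon bases with Rtraf on the other strand.

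The 5 matricellular genes and glycoproteins, whose products sit in the matrix and modulate how cells hold to it, all had estimates below 0. Sparc, a collagen-binding protein, had the highest level per kb of the whole list in both genotypes (216 CPM in WT, 164 CPM in *Smchd1*-null). It was at 791, 988, 651 and 836 CPM in WT and 557, 685 and 619 CPM in *Smchd1*-null samples. The ranges touched only where WT replicate 3 fell below *Smchd1*-null replicate 2, and the log2 fold change was -0.33 (SE 0.14, unadjusted p = 0.0328, adjusted p = 0.333), with -0.68 and -0.25 within the batches. Tnr, tenascin-R, is made by the oligodendrocyte lineage and some neurons. It was at 20.5, 9.11, 14.2 and 37.4 CPM in WT and 6.76, 6.39 and 16.2 CPM in *Smchd1*-null samples. The highest value was that of WT replicate 4, and *Smchd1*-null replicate 3 lay inside the WT range. Its log2 fold change was -1.18 (SE 0.36, unadjusted p = 0.00551, adjusted p = 0.280), with -0.43 and -0.50 within the batches, and -0.96 (unadjusted p = 0.0113) without WT replicate 4. Exons of Tnr share 443 bases with an antisense transcript, so its counts are uncertain.

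Sparcl1, a relative of Sparc made by astrocytes, was set apart by 1 library: it was at 924 CPM in WT replicate 4 and at 46.9 to 115 CPM in the other WT samples, against 89.0 to 110 CPM in *Smchd1*-null samples. Its log2 fold change was -0.10 (SE 0.50), but -1.57 in edgeR and DESeq2 and -0.61 in voom without sample weights, and 0.37 without WT replicate 4. The 6 astrocyte markers summed to 347 to 1010 CPM in WT and 261 to 426 CPM in *Smchd1*-null samples, 1 of them (Aldoc, log2 fold change -0.81) passing an adjusted p of 0.25. The 5 markers of the oligodendrocyte lineage summed to 826 to 953 and 879 to 903 CPM, but most of this was Olig2 (654 to 822 and 747 to 775 CPM). Less abundant markers varied more in WT: Pdgfra was at 8.13 to 68.9 and 10.5 to 26.6 CPM, Sox10 at 2.1 to 41.3 and 6.01 to 11.4 CPM, and Mbp at 0.262 to 96.2 and 1.13 to 2.6 CPM. Whether glial RNA takes part in the values of Sparcl1, Tnr, Ncan and Timp3 was not tested beyond leaving out WT replicate 4. Tnc, tenascin-C, a glycoprotein of the stem cell niche, was at 466 to 829 CPM in WT and 561 to 723 CPM in *Smchd1*-null samples (-0.06, SE 0.16). Fibronectin (Fn1) was low, at 4.19 to 14.6 and 3.86 to 9.74 CPM, and gave -0.68 (SE 0.39).

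Chondroitin sulfate proteoglycans of the brain fill the space between cells. Ncan, neurocan, was at 251, 237, 256 and 356 CPM in WT and 203, 203 and 216 CPM in *Smchd1*-null samples. The genotypes did not overlap, with WT replicate 4 farthest from the rest. The log2 fold change was -0.35 (SE 0.12, unadjusted p = 0.0113, adjusted p = 0.294), with -0.22 and -0.48 within the batches and -0.29 without WT replicate 4. Ptprz1, a receptor phosphatase whose secreted form is phosphacan, was at 1350, 830, 1120 and 1550 CPM in WT and 753, 791 and 1190 CPM in *Smchd1*-null samples. *Smchd1*-null replicate 3 exceeded WT replicates 2 and 3. The log2 fold change was -0.51 (SE 0.17, unadjusted p = 0.00914, adjusted p = 0.288), but only -0.11 and -0.15 within the batches. Brevican (Bcan, -0.05, SE 0.13) and versican (Vcan, 0.13, SE 0.24) were near 0. Aggrecan (Acan) had at most 2 counts and its link protein Hapln1 at most 5 in any sample, so nothing can be said of them at this depth.

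All 4 matrix receptors had estimates between -0.39 and -0.15. Itga6, the laminin-binding integrin chain that marks many stem cells, was at 125, 126, 131 and 132 CPM in WT and 114, 114 and 109 CPM in *Smchd1*-null samples. No sample overlapped, yet the whole spread of the 7 values was small and the log2 fold change was -0.18 (SE 0.11, unadjusted p = 0.132), with -0.14 and -0.27 within the batches. Itgb8, an integrin chain whose dimer with Itgav activates TGF-beta, was at 116, 83.1, 122 and 121 CPM in WT and 82.2, 83.2 and 97.0 CPM in *Smchd1*-null samples. WT replicate 2 alone lay in the *Smchd1*-null range, and the log2 fold change was -0.39 (SE 0.14, unadjusted p = 0.0125, adjusted p = 0.294), with -0.01 and -0.32 within the batches. Itgb1, the common beta chain, gave -0.17 (SE 0.11), and dystroglycan (Dag1), which binds laminin, agrin and perlecan, -0.15 (SE 0.12).

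Of the genes that cut matrix, none was lower or higher at an unadjusted p under 0.05: Mmp2 (0.29), Mmp15 (0.21), Adamts1 (0.16) and Mmp14 (0.03) were all estimated slightly above 0. The batches did not share this for all of them. In the same order, the differences were 0.37, 0.10, 0.47 and 0.32 within batch 1, and -0.27, 0.13, -0.22 and -1.25 within batch 2. Mmp15, a membrane-bound protease, was the most abundant of them per kb, at 54.0 CPM in WT and 61.3 CPM in *Smchd1*-null samples. Timp3, the inhibitor of metalloproteases that stays bound to matrix, had the lowest estimate of the list. It was at 4.15, 1.33, 5.24 and 13.2 CPM in WT and 1.13, 0.665 and 3.68 CPM in *Smchd1*-null samples. WT replicate 4 was highest and WT replicate 2 lay inside the *Smchd1*-null range. Its log2 fold change was -2.01 (SE 0.62, unadjusted p = 0.00566, adjusted p = 0.280) from 3 to 77 counts, with -0.43 and -1.10 within the batches and -1.70 without WT replicate 4. Timp3 shares 1733 exon bases with Syn3, which is coded on the other strand, so its counts are uncertain. Timp2, a secreted inhibitor, gave -0.17 (SE 0.14). Cell surface heparan sulfate proteoglycans gave estimates from -0.51 (Sdc3) to 0.05 (Sdc2), and Gpc4 at -0.44 (SE 0.20) came closest to an unadjusted p of 0.05, at 0.0516. Within batches Sdc3, a syndecan of neural cells, was higher in *Smchd1*-null samples (0.43 and 0.23), against the direction of its pooled estimate (SE 0.30). Gpc1 shares 977 exon bases with Ankmy1 on the other strand and is uncertain too.

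**Figure D3:**
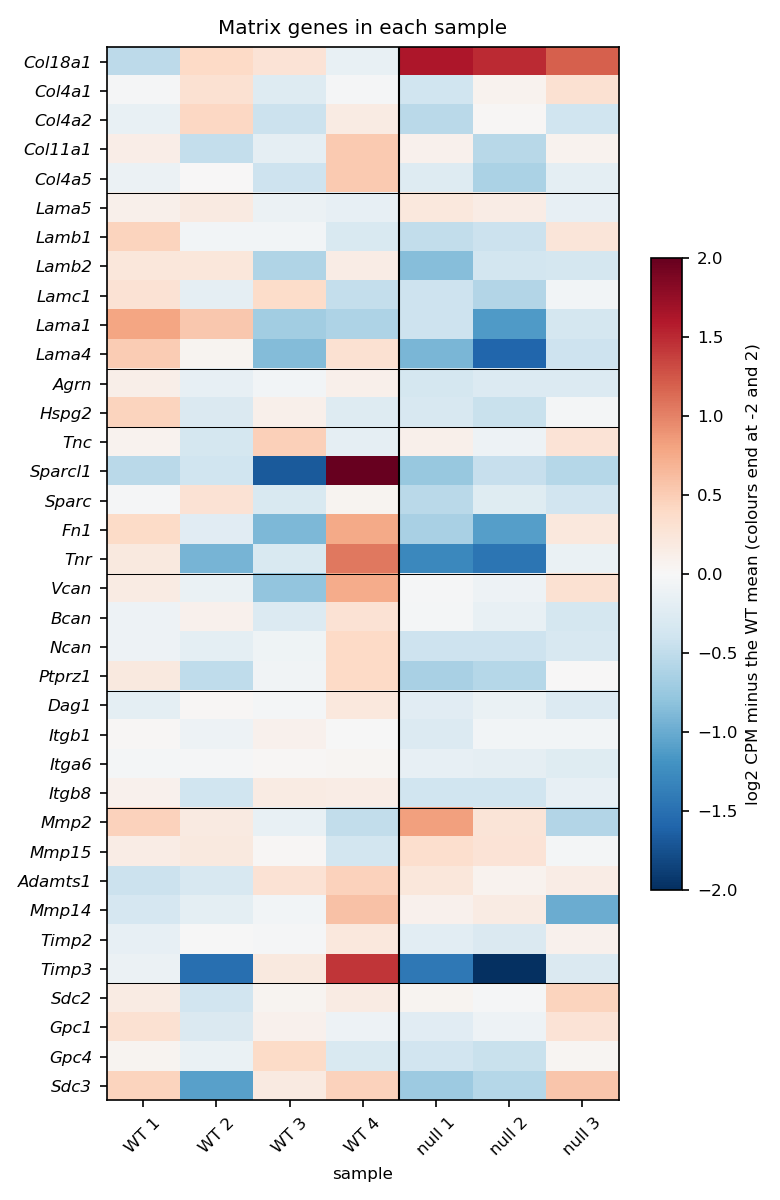
Log2 CPM of the 36 tested genes in each sample, minus the mean of the 4 WT samples, with genes grouped by role. Red is above and blue below the WT mean, and colours end at -2 and 2. Col18a1 is red in all 3 *Smchd1*-null samples, and the median gene was at -0.33 and -0.29 in *Smchd1*-null replicates 1 and 2 but at -0.10 in replicate 3.

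Many of the lower estimates came from long genes. The 36 tested genes had a median length of 7108 bases, against 4160 bases over all tested genes, and 16 of them were in the longest quintile of genes (7517 bases or more). Across all 13305 genes, longer genes had lower fold changes (Spearman's rho -0.38, across genes, which are not independent), and rho was -0.41 over the 36. In the longest quintile, the median log2 fold change of all genes was -0.14 and 13.4% were lower at an unadjusted p under 0.05. There the median of the 16 matrix genes was -0.41, and 8 of them were lower. After the dependence of log-CPM on gene length was taken out of every sample, Col18a1 gave 1.60 (adjusted p = 0.0219), the median of the 36 was -0.17 against 0.01 over all genes, and 8 genes were lower at an unadjusted p under 0.05, where 4.77% of all genes were. Of the 10 lower genes, 7 remained among those 8 (Lama4, Lamc1, Sparc, Tnr, Ncan, Ptprz1 and Timp3), Agrn, Hspg2 and Itgb8 did not, and Gpc4 joined. Beyond this, what length contributes to the lower estimates was not tested.

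**Figure D4:**
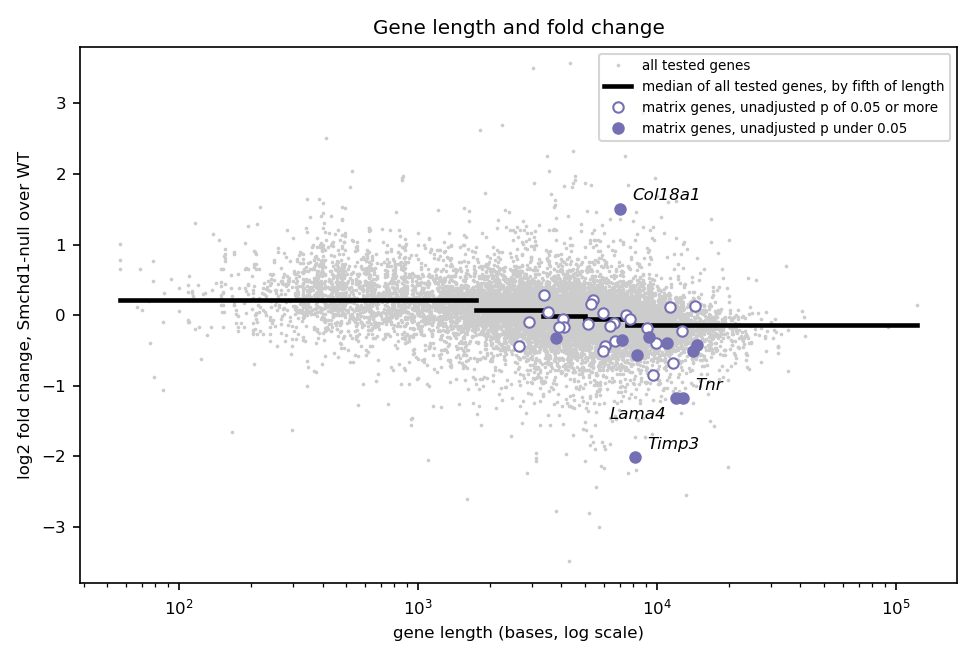
Log2 fold change, *Smchd1*-null over WT, against gene length in bases on a log axis. Grey points are all 13305 tested genes, black bars the median of all genes in each quintile of length, and circles the 36 matrix genes, filled where the unadjusted p was under 0.05. The bars step down from 0.22 to -0.14, and Col18a1 at 7021 bases lies far above the others of its length.

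Single samples decided how many genes passed an adjusted p of 0.25. Without WT replicate 2, 12 of the 36 passed, against 21.9% of all genes, and without *Smchd1*-null replicate 3, 16 passed, against 22.8% of all genes. In both cases all but Col18a1 were lower, with Lama4, Lamc1, Hspg2, Agrn, Tnr, Ncan, Ptprz1, Itgb8, Timp3, Gpc4 and Sdc3 passing in both. WT replicate 2 was the only WT sample read in batch 1 alone, and *Smchd1*-null replicate 3 the only *Smchd1*-null sample in batch 2. With either left out, genotype and batch are therefore told apart less well than with all samples. Without *Smchd1*-null replicate 1 or 2, in contrast, 1 gene was lower at an unadjusted p under 0.05, against 1.54% and 1.53% of all genes. Only Col18a1 passed 0.25 without replicate 1 and no gene of the list, Col18a1 included, without replicate 2, where 5 and 2 of all 13305 genes did. Within batches, the *Smchd1*-null mean was below the WT mean for 24 of the 36 genes in batch 1 and 22 in batch 2, with medians of -0.16 and -0.12 on the log2 scale. The same share and median over all tested genes were not taken within batches, so these values cannot show whether the list differs from other genes there. Of the 10 lower genes, which were picked on the same samples, Lamc1 was at 0.00 and Hspg2 at 0.05 within batch 2.

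A wider list of 188 other matrix genes, of which 103 were tested, held 2 that passed an adjusted p of 0.25 (1.08% of all tested genes did) and 0 that passed 0.05. Both were lower in *Smchd1*-null samples. Itgav, the integrin chain that joins with Itgb8, was at 189, 126, 163 and 160 CPM in WT and 101, 106 and 152 CPM in *Smchd1*-null samples (log2 fold change -0.56, SE 0.15, adjusted p = 0.233). The ranges overlapped, and the differences were -0.29 and -0.09 within the batches. Frem2, a protein of embryonic basement membranes, gave -2.55 (SE 0.61, adjusted p = 0.191) from 5 to 13 counts in WT and 0 to 7 in *Smchd1*-null samples. Its ranges overlapped too, with *Smchd1*-null replicate 3 at 1.52 CPM and WT replicate 3 at 1.31 CPM. The differences of Frem2 were -1.91 within batch 1 and -0.16 within batch 2. Of the 103, 6 were higher and 14 lower at an unadjusted p under 0.05, against 7.11% and 6.74% of all tested genes, with a median log2 fold change of -0.07. By kind, the median was 0.04 for 10 other collagens, -0.14 for 17 other laminins, netrins and basement membrane glycoproteins, and 0.03 for 30 enzymes that make collagen and basement membrane. The 15 other integrins and receptors had a median of -0.29, with 11 of the 15 below 0, and the median was -0.32 for 8 other proteoglycans and link proteins and -0.02 for 23 other proteases and inhibitors. No gene of the wider list passed 0.25 in the upward direction.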

How the data were processed

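Gene-level counts of nanopore direct-cDNA reads from 4 WT and 3 *Smchd1*-null NSC samples were used as deposited: whole-number counts per gene, not normalised, with a length per gene that the authors' table gives. To make the counts, the authors aligned reads to mm10 with minimap2 (2.17 in the submitters' processing notes) and counted primary alignments with featureCounts in long-read mode on a Gencode annotation of GRCm38. Strand use was not stated. Symbols and coordinates were taken from Gencode M21 (55154 of 55335 identifiers matched, version ignored) and promoters from RefSeq.

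Following the study's methods, genes were filtered with filterByExpr and TMM-scaled, and genotype was fitted to all 7 samples with voomWithQualityWeights and eBayes (two-sided, Benjamini-Hochberg over 13305 genes). Software was R 4.3.3, limma 3.58.1, edgeR 4.0.16 and DESeq2 1.42.0. Log-CPM used a prior count of 2, and within-batch differences are of mean log-CPM, without WT replicate 1. Intervals and the floor of 3 counts per library cover model or counting error only. The pipeline was tested on simulated counts.

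The 42 genes, the wider and marker lists and the tests were chosen with earlier results of these data known. A marker gene is not reported here and was left out of its list. Values in every sample were given for Col18a1, 8 preset partners and genes with an unadjusted p under 0.05 or no overlap. From the wider list, genes with an adjusted p under 0.25 were named. No pair of samples within a genotype agreed within sampling noise (chi-square per degree of freedom at least 2.72). The alternatives were edgeR, DESeq2, unweighted voom, other scaling, no filter, batch, replicate block, length trend removal (lowess, span 0.3) and each replicate left out.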

Additional observations from a re-analysis of the deposited data

Results flagged for a closer look

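In 2 of the 42 genes, 1 WT sample stood apart from the other 3 by more than Dixon's 95% limit, a rate near the 1 in 20 that chance gives. Lamb2, a laminin beta chain, had a log-CPM of 4.51 in WT replicate 3 against 5.26 to 5.34 in the other WT samples (22.3 CPM against 38.1 to 40.0 CPM). Itgb8 had a log-CPM of 6.38 in WT replicate 2 against 6.86 to 6.94 (83.1 CPM against 116 to 122 CPM).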

How the results depend on the processing

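Col18a1 was higher in *Smchd1*-null samples in all 19 alternatives, with an adjusted p under 0.25 in 18 and under 0.05 in 13. It was no longer past 0.05 in edgeR's quasi-likelihood test (1.42), voom without weights (1.44) and with all genes that had a count (1.41). Leaving out 1 replicate gave 1.28 to 1.64. The number of matrix genes past 0.05 was 1, and 0 in those 3 fits, and 0 to 1 with a replicate left out. Past 0.25 it was 2 with batch as a covariate (Sparc added), 2 with the replicate block (Lamc1 added), 3 with length removal and the block, 2 with length removal and batch, and 0 to 16 with a replicate left out. Of all 13305 genes, 74, 129, 176, 105 and 2 to 3029 passed 0.25 in these fits, in the same order. The number higher at an unadjusted p under 0.05 was 2 with batch, 3 with batch and no WT replicate 1, and 3 with length removal and batch. Of all 13305 genes, 513, 414 and 529 were. The number lower was 5 without weights, 5 with batch and no WT replicate 1, 6 with the replicate block, 5 with length removal and the block, and 1 to 15 with a replicate left out. The shares of all genes were 2.64%, 3.48%, 3.18%, 3.4% and 1.53% to 10.5%. Other matrix genes past 0.25 numbered 0 in edgeR, DESeq2, unweighted voom and with all genes, 1 with batch (with or without WT replicate 1), 1 with length removal, 1 with length removal and batch, and 0 to 27 with a replicate left out. Over all genes, 8, 32, 10 and 22 passed in edgeR, DESeq2, unweighted voom and with all 36857 genes kept. It was 74 with batch, 28 with batch and no WT replicate 1, 63 with length removal, and 105 with length removal and batch. The 27 came without *Smchd1*-null replicate 3, where 22.8% of all genes passed. The cause of these changes was not tested. The median over the list was -0.30 to -0.11 in the alternatives, each within 0.186 of the reported -0.20, the SD between samples of the list's median log-CPM.

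The labels do not say whether equal replicate numbers mark pairs. Same-numbered samples had correlations of -0.02, 0.38 and 0.10 in their deviations from the group means. Differently numbered samples had -0.54 to 0.28. Deviations from a mean of so few samples depend on each other, so these values cannot decide whether the samples are paired. With the replicate block, Col18a1 gave 1.23.

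None of the estimates that turned sign passed an adjusted p of 0.25 after turning. Mmp14 was at -0.22 in edgeR, -0.22 in DESeq2, -0.27 without weights, -0.02 with library size alone, -0.16 with all genes, -0.13 with batch, -0.20 with batch and no WT replicate 1, -0.07 with length removal and batch, and -0.47 to 0.19 in leave-outs. Tnc was at 0.07 in edgeR and DESeq2, 0.10 without weights, 0.03 with all genes, 0.21 and 0.22 with batch, 0.06 with the block, 0.09 with length removal, 0.13 with the block added, 0.24 with batch added, and -0.17 to 0.17 in leave-outs. Gpc1 was at 0.01 without weights, 0.13 and 0.21 with batch, 0.09 with the block, alone or with length removal, 0.15 with length removal and batch, and -0.22 to 0.03 in leave-outs. Col4a1 was at 0.01 in edgeR, 0.02 in DESeq2, 0.03 without weights, 0.07 with length removal and -0.13 to 0.21 in leave-outs. Col11a1 was at 0.04 and 0.08 with batch, 0.05 with the block, 0.11 and 0.10 with length removal and block or batch, and -0.35 to 0.11 in leave-outs. Sdc3, at -0.51 in the weighted fit, was at 0.22 and 0.35 with batch, 0.14 with the block, and 0.13 and 0.24 with length removal and block or batch. Lama5 was at -0.03 and -0.02 with batch and -0.01 with the block. Sparcl1 was at -1.57 in edgeR and DESeq2, -0.61 without weights, 0.26 with the block, 0.19 with length removal and block, and -0.76 to 0.37 in leave-outs. Vcan was at -0.04 in edgeR and DESeq2 and -0.21 to 0.30 in leave-outs. In leave-outs, Mmp2 ran from -0.09 to 0.48, Sdc2 from -0.06 to 0.25, Adamts1 from -0.03 to 0.32, Col4a2 from -0.42 to 0.01 and Bcan from -0.17 to 0.00.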

Other observations

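Summed over their members, the laminin chains took 305, 256, 250 and 216 CPM in WT and 203, 199 and 234 CPM in *Smchd1*-null samples, and the chondroitin sulfate proteoglycans took 1570 to 2510 and 1420 to 1800 CPM. The collagen sum ran from 83.4 to 121 CPM in WT and from 110 to 119 CPM in *Smchd1*-null samples. Ordered by level per kb of gene length, Col18a1 was at place 27 of the 36 tested genes in WT and at place 16 in *Smchd1*-null samples, while Sparc and Bcan held the first and second place in both. The order of neighbouring genes was not tested.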
